A study of Mus musculus with 39 samples.

Results

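The nuclear RNA of 2 batches of mouse neocortex, called batch 2 and batch 3 here, was compared in 23 RNA-seq libraries of the 39 samples of the series. Batch 2 held 7 libraries of nuclei sorted by fluorescence (FANS) and 4 of nuclei captured on beads (INTACT), and batch 3 held 7 and 5. The comparison between batches was made within FANS and, separately, within INTACT, and genes were kept where both comparisons pointed the same way. Of 23181 autosomal genes in the tables, 14133 had a mean of at least 5 jointly scaled reads over the 23 libraries and were tested, and 10364 of these (73.3%) had the same sign of change in both techniques. Genes on X and Y were left out.

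The series set FANS against INTACT as ways to isolate tagged nuclei, with RNA-seq and ATAC-seq as readouts. The mice were adults of both sexes that carried Arc-creERT2 (TG/WT) and R26 CAG-Sun1-sfGFP-Myc, either M/M or M/WT. All had received tamoxifen before a social interaction test and were killed days later. In this line the Arc promoter drives a tamoxifen-dependent Cre recombinase, so a green fluorescent protein on the nuclear membrane marks cells that expressed Arc while tamoxifen was present. Nuclei of one neocortical suspension were either sorted as DAPI+ and sfGFP+ events (FANS) or bound to antibody-coated magnetic beads (INTACT). The methods give the same mouse line, treatment, tissue and library kit for all batches, and not which tag genotype each batch had, and the batches differed in biological source. Each batch is given as one biological source, so the FANS and INTACT libraries of a batch are not independent for animals, and p-values measure the spread between libraries, which may be technical. Differences of the animals, of their sex and of the handling of a batch cannot be told apart.

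Immediate early genes are transcribed within minutes of synaptic activity without new protein synthesis. Many are switched on by CREB, a factor that binds cyclic AMP response elements when phosphorylated, and by serum response factor. Their products include transcription factors (Fos, the Egr and Nr4a families) and the synaptic protein Arc. Oligodendrocytes make the myelin around axons, and their nuclei hold transcripts of myelin proteins such as Mbp, Mog and Mobp. Inhibitory interneurons make GABA from glutamate through Gad1 and Gad2 and form a minority of cortical neurons. Because libraries were made from many nuclei, fewer nuclei of a type and less RNA per nucleus cannot be told apart.

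The RNA of batch 2 held more myelin transcripts, more immediate early transcripts and more transcripts of interneurons than that of batch 3, in FANS and in INTACT. Called genes had a Benjamini-Hochberg adjusted p under 0.05 in limma and a change of at least 1.5-fold. In FANS, 599 genes were called higher in batch 2 (4.24% of those tested) and 236 higher in batch 3 (1.67%). In INTACT, 725 were called higher in batch 2 (5.13%) and 331 higher in batch 3 (2.34%). Called in both techniques were 434 genes higher in batch 2 (3.07%) and 107 higher in batch 3 (0.757%), and 0 genes were called in opposite directions. Of the FANS calls, 72.5% of those higher in batch 2 and 45.3% of those higher in batch 3 were also INTACT calls. Of the INTACT calls, 59.9% and 32.3% were also FANS calls. The median log2 difference of all tested genes, batch 3 minus batch 2, was -0.01 in FANS and -0.02 in INTACT. Without the fold threshold, 3483 genes (24.6%) passed the adjusted p in FANS and 3871 (27.4%) in INTACT.

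**Figure D1:**
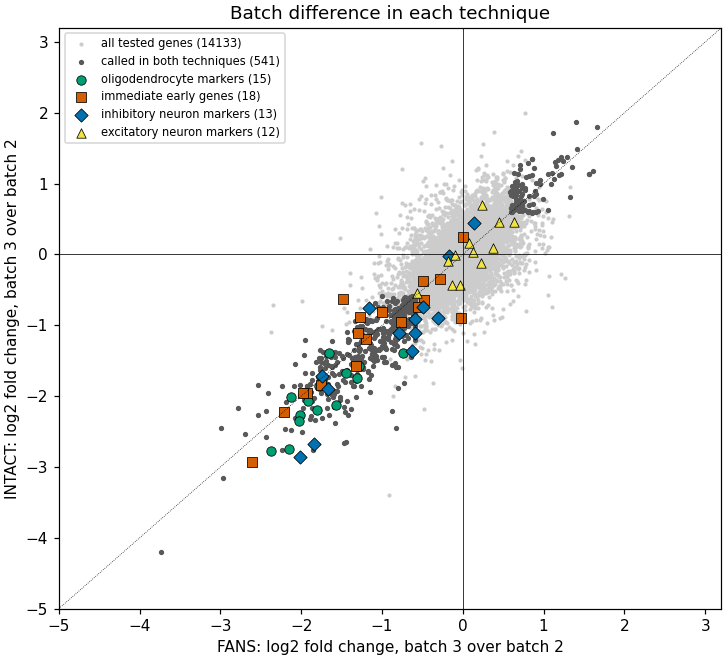
Log2 fold change of each tested autosomal gene between batches, batch 3 minus batch 2, in FANS (x axis) and INTACT (y axis), with genes called in both techniques in dark grey. Colours mark the tested members of the oligodendrocyte, immediate early, inhibitory neuron and excitatory neuron lists, whether called or not. The 434 genes higher in batch 2 lie in the lower left and the 107 higher in batch 3 in the upper right.

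Separation of the batches was seen over all tested genes. Batch accounted for 26.5% of the variance of log2 counts over the 23 libraries and technique for 4.96%. The first principal component held 27.4% of the variance, and the libraries of batch 2 lay between -28.8 and -11.0 on it and those of batch 3 between 16.8 and 28.0. Libraries also differed between batches in measures other than genes. In FANS, reads on genes ran from 5729449 to 7292908 in batch 2 and from 4205665 to 5716318 in batch 3, and in INTACT from 5402820 to 7033059 and from 4944980 to 5131333. The ranges did not overlap in either technique (two-sided exact permutation p = 0.000583 in FANS and 0.00794 in INTACT, the smallest each design allows, adjusted over 5 measures 0.00146 and 0.00992). Reads outside gene features made up 80.0% ± 0.778 (SD, n = 7) of the reads in FANS of batch 2 and 81.9% ± 1.78 (SD, n = 7) in batch 3 (exact permutation p = 0.0152, adjusted p = 0.0253). This FANS difference lost the call, with an adjusted p of 0.0524 to 0.0583, when FANS batch 2 replicate 2, 4, 5, 7 or 8 was left out. In INTACT they made up 78.1% ± 0.635 (SD, n = 4) and 82.4% ± 0.411 (SD, n = 5) (exact permutation p = 0.00794, adjusted p = 0.00992). FANS batch 3 replicates 6 and 7 had the highest shares, 83.3% and 85.1%. With the share of reads outside features as a covariate, FANS had 576 genes higher in batch 2 and 235 higher in batch 3, against 599 and 236 without it. In INTACT the shares of the batches did not overlap, so share and batch cannot be told apart there. The part of depth in the gene differences was not tested. Without FANS batch 3 replicates 6 and 7, genes called in both techniques numbered 84 higher in batch 3 and 416 higher in batch 2. With all libraries they numbered 107 and 434. The interaction and the small nucleolar RNAs are given with both values below. Replicates of one group were separate libraries, since the chi-square per gene of the 58 pairs lay between 1.74 and 15.1, above sampling noise.

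**Figure D2:**
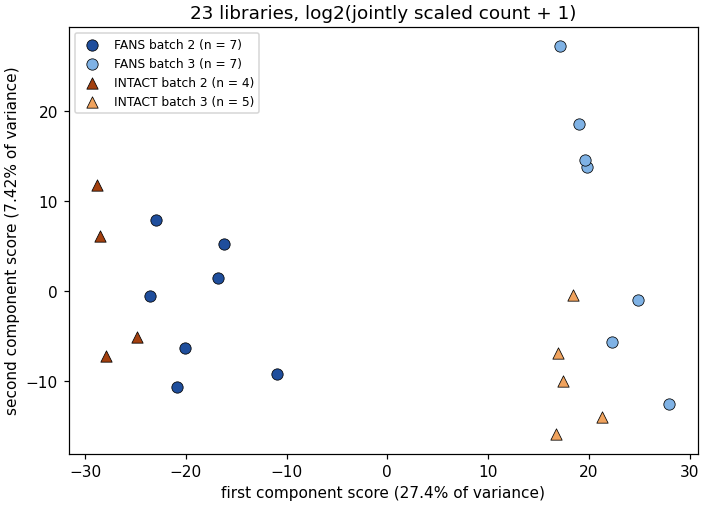
Scores of the 23 libraries on the first 2 principal components of log2(jointly scaled count + 1), by batch and technique, with 1 point per library. On the first component (27.4% of the variance) batch 2 lies between -28.8 and -11.0 and batch 3 between 16.8 and 28.0.

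The gene whose promoter drives the Cre was itself among the most different. Arc, on chromosome 15, encodes a postsynaptic protein that regulates glutamate receptor endocytosis. In FANS its jointly scaled count had a lowest value of 1072, a median of 1222 and a highest value of 1245 in batch 2, against 271, 301.4 and 377 in batch 3. In INTACT the 4 libraries of batch 2 held 1126, 1179, 1122 and 1210 and the 5 of batch 3 held 320, 259, 329, 281 and 301.4. Every library of batch 2 was above every library of batch 3, and the log2 fold change was -1.94 ± 0.07 (SE) in FANS (adjusted p = 4.62e-18) and -1.96 ± 0.07 in INTACT (adjusted p = 6.77e-23). The deposited gene table cannot separate Sun1 reads of the transgene from those of the endogenous gene, which encodes an inner nuclear membrane protein. The Sun1 count was lower in batch 3 by less than 1.5-fold, at -0.12 ± 0.04 in FANS and -0.22 ± 0.05 in INTACT (adjusted p = 0.0448 and 0.00155). Gt(ROSA)26Sor, the locus that carries the tag, differed by -0.29 ± 0.15 and -0.44 ± 0.19 and did not pass the test in either (adjusted p = 0.159 and 0.0793). Its values moved to -0.17 in FANS without FANS batch 3 replicate 7 and to -0.26 in INTACT without INTACT batch 3 replicate 3.

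Of 19 immediate early genes in the list, 18 were tested, and 11 were called higher in batch 2 in both techniques and 0 higher in batch 3. The 11 were Arc, Fos, Fosb, Junb, Egr3, Egr4, Nr4a1, Nr4a3, Ier2, Dusp1 and Btg2. In FANS 12 of 18 were called higher in batch 2 and in INTACT 14, beside 4.24% and 5.13% of all tested genes. The median log2 fold change of the list was -1.24 in FANS and -0.93 in INTACT, against -0.01 and -0.02 for all tested genes. The summed count of the list lay between 4376 and 4922 in FANS batch 2 and between 1822 and 2333 in FANS batch 3. In INTACT it lay between 4432 and 4714 and between 1877 and 2059, so the batches did not overlap in either technique.

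Fos, a subunit of the transcription factor AP-1, had the largest shared change of the genes with a mean of at least 50, taking the smaller change of the 2 techniques. It had 84.4, 98.3 and 116 reads (lowest, median and highest) in FANS batch 2 and 9.38, 16 and 22.6 in FANS batch 3. In INTACT it had 84.7, 85.6, 108 and 88.3 in batch 2 and 8.11, 13.9, 22.5, 3.47 and 17.1 in batch 3. The libraries of batch 2 were all higher, and the log2 fold change was -2.60 ± 0.16 in FANS and -2.93 ± 0.29 in INTACT (adjusted p = 6.57e-13 and 7.19e-10). Nr4a3, an orphan nuclear receptor, fell from a FANS median of 344 to one of 70.6, and in INTACT from 272, 236, 303 and 271 to 42.8, 83.5, 56.3, 47.4 and 62.8. Again there was no overlap, with log2 fold changes of -2.22 ± 0.11 and -2.22 ± 0.14 (adjusted p = 3.19e-14 and 1.93e-15). Fosb, another AP-1 subunit, had smaller counts, with FANS medians of 31.1 and 7.48 and log2 fold changes of -1.98 ± 0.25 and -1.96 ± 0.30 (adjusted p = 1.28e-06 and 4.42e-06).

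Values of the other members were looked at after the list was counted. Egr3, a zinc finger factor, had FANS medians of 536 and 215, and Nr4a1, a nuclear receptor, 680 and 266. Junb, which pairs with Fos proteins, had FANS medians of 116 and 65.2 with overlapping ranges (84.4 to 132 and 47.9 to 87.3). Egr1, a zinc finger factor much used as an activity marker, changed by -0.56 ± 0.06 in FANS, under 1.5-fold, and by -0.74 ± 0.07 in INTACT (adjusted p = 1.7e-07 and 2.71e-10). Npas4, a neuron-specific factor induced by calcium influx, changed by -0.50 ± 0.07 and -0.38 ± 0.08 (adjusted p = 2.28e-06 and 0.000535), also under 1.5-fold. Jun had a log2 fold change of -0.02 ± 0.12 in FANS and of -0.90 ± 0.15 in INTACT, and the difference between techniques had an adjusted p of 0.197 in limma. Within the list, Arc and Nr4a3 thus differed by over 3-fold and Npas4 by less than 1.5-fold.

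**Figure D3:**
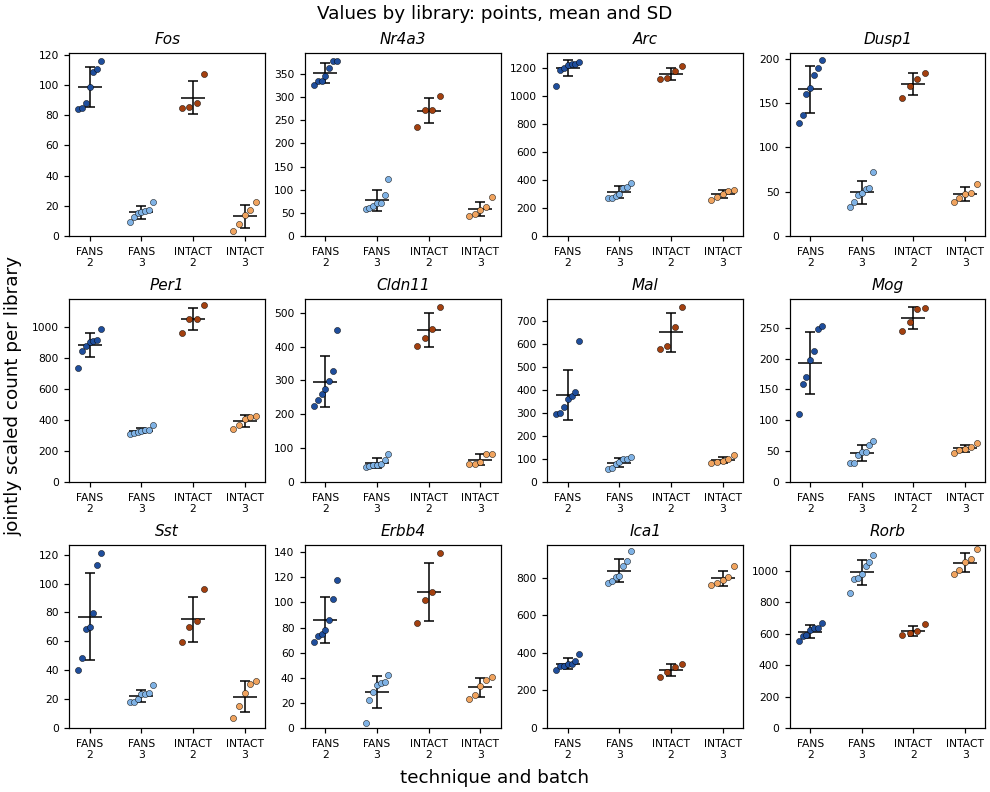
Jointly scaled count of named genes in each library, by batch and technique, on a linear axis with 1 point per library and the mean and SD of each group. For Arc the libraries of batch 2 lie between 1072 and 1245 and those of batch 3 between 259 and 377.

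Dusp1, a phosphatase that inactivates MAP kinases, and Btg2, an antiproliferative gene, are shown with their promoters because they carry the full cyclic AMP response element in the 250 bases before the start site. Dusp1 had FANS counts of 127, 167 and 198 (lowest, median, highest) in batch 2 and 32.7, 48.2 and 72.7 in batch 3, and Btg2 had 95.8, 117 and 141 and 40.3, 44.1 and 53.0. In INTACT Dusp1 had 184, 177, 169 and 156 in batch 2 and 47.5, 48.7, 38.3, 59.0 and 43.4 in batch 3. Neither gene overlapped between batches, with log2 fold changes of -1.75 ± 0.14 and -1.85 ± 0.13 for Dusp1 and of -1.32 ± 0.11 and -1.57 ± 0.15 for Btg2. Sst, the somatostatin peptide of an interneuron class, is the gene in which this element was first defined, and it is shown for comparison since it was also called in both techniques. These 3 were picked after the search for the element. The sequences are from RefSeq, GRCm38.p6, minus strand, 5′ to 3′, with the palindrome TGACGTCA in capitals. They lie at chr17:26508473-26508722 (Dusp1), chr1:134079156-134079405 (Btg2) and chr16:23890845-23891094 (Sst), and the element begins 143, 166 and 48 bases before the start site.
Dusp1: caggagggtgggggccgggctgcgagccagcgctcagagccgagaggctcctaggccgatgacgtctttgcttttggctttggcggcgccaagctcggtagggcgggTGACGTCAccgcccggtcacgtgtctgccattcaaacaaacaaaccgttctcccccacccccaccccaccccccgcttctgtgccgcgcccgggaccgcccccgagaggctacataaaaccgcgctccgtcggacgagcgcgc
Btg2: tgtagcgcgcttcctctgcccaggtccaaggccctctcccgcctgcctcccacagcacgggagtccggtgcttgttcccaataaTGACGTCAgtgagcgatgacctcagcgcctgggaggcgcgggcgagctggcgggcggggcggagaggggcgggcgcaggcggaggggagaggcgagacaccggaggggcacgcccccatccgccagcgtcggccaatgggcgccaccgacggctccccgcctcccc
Sst: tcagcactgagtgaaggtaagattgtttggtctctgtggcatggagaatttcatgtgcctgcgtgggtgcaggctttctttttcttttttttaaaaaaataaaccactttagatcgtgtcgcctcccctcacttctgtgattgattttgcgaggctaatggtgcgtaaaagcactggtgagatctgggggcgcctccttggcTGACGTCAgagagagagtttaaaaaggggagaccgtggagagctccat

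The letters TGACGTCA read the same on both strands, so 1 search covered both. They were in the promoters of 388 of 10972 tested genes that had a RefSeq promoter (3.54%) and of 588 of 32851 in the whole table (1.79%). Among genes called in both techniques they were in 11 of 318 that were higher in batch 2 (3.46%) and in 1 of 73 that were higher in batch 3 (1.37%). Of the immediate early genes with a promoter 3 of 14 held them (21.4%), and of those called in both 2 of 8 (25.0%). The share among the genes higher in batch 2 was thus near that of all tested genes. A match is a description of letters and not of a bound site.

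Reads over 2 microRNA genes that share a seed had higher counts in batch 2 than in batch 3. Mir132 and Mir212 lie within one transcript on chromosome 11 that CREB is known to activate, with hairpins at chr11:75173682-75173747 and chr11:75173388-75173478 on the plus strand. Their mature 3p strands follow from RefSeq, GRCm38.p6, with the shared seed (bases 2 to 8) AACAGUC in capitals.
mmu-miR-132-3p: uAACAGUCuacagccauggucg
mmu-miR-212-3p: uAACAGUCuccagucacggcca
Mir132 had FANS counts of 5.56, 10.4 and 17.3 (lowest, median, highest) in batch 2 and 0, 2.75 and 4.28 in batch 3, and Mir212 had 8.35, 14.5 and 23.4 and 1.04, 3.21 and 5.05. In INTACT, Mir132 had 6.52, 11.3, 3.74 and 11.0 against 4.63, 0, 1.13, 2.31 and 0, and Mir212 had 3.26, 15.5, 14.0 and 13.0 against 1.16, 0, 4.51, 5.78 and 2.28. The batches did not overlap in FANS and overlapped in INTACT. Both genes averaged under 5 in batch 3 and passed the filter on low values only through batch 2, so their values are given as a description with no test. These are reads of nuclear transcripts over the hairpins at low counts and not of mature microRNAs. Both were chosen after their values were seen. Of 184 microRNA genes tested, 2 were called in both techniques in each direction, beside 3.07% of all tested genes for batch 2 and 0.757% for batch 3. Those higher in batch 2 were Mir132 and Mir212, so that count is a description. Those higher in batch 3 were Mir28b and Mir876, a share near that of all tested genes.

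Of 14 late activity-regulated genes, 1 was called in both, beside 3.07% of all tested genes, Gadd45b, a DNA-damage-inducible gene also induced by neuronal activity, which was higher in batch 2 (-0.65 ± 0.18 and -0.96 ± 0.28). The medians of that list were -0.18 in FANS and -0.32 in INTACT. Bdnf, a neurotrophin of the same list, was at -0.26 ± 0.08 and -0.63 ± 0.10 (adjusted p = 0.021 and 1.16e-05), and Homer1, a postsynaptic scaffold, at -0.18 ± 0.04 and -0.02 ± 0.05, both named after their values were seen. Of 22 clock genes, 3 were called in both, all higher in batch 2, beside 3.07% of all tested genes, and the list medians were -0.07 and -0.16. The summed count of the list lay between 12654 and 13162 in FANS batch 2 and between 11506 and 12172 in FANS batch 3, and in INTACT between 12544 and 13530 and between 11682 and 12106, with no overlap. Per1, a repressor of the clock loop that is also induced by CREB, had FANS counts of 734, 904 and 989 in batch 2 and 312, 328 and 367 in batch 3. Its INTACT counts were 960, 1054, 1052 and 1141 in batch 2 and 345, 425, 422, 366 and 410 in batch 3. Per1 did not overlap in either technique and had log2 fold changes of -1.41 ± 0.06 and -1.42 ± 0.07 (adjusted p = 3.81e-16 and 1.22e-18). Bhlhe40, a repressor that is both a clock and an activity gene, changed by -1.16 ± 0.08 and -1.33 ± 0.08, and Nr1d1, which encodes the repressor REV-ERB alpha, by -0.90 ± 0.06 and -0.85 ± 0.06. Arntl and Clock, which form the activator of the loop, were at 0.23 ± 0.07 and 0.13 ± 0.04 in FANS and at 0.20 ± 0.07 and 0.18 ± 0.05 in INTACT, all under 1.5-fold. They were named after their values were seen, and the hours at which the mice were killed were not given in the sources used here.

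Of 12 glucocorticoid-induced genes, 2 were called higher in batch 2 in both techniques, beside 3.07% of all tested genes. They were Pdk4, a kinase that inhibits pyruvate dehydrogenase, and Ddit4, an inhibitor of mTOR signalling. Pdk4 had low counts, with FANS medians of 9.27 and 1.96. It passed the filter on low values only through batch 2, so its part in the count of 2 is a description. Fkbp5, a co-chaperone of the glucocorticoid receptor that was named after its values were seen, was at -0.17 ± 0.15 and -0.37 ± 0.21 and did not pass the test (adjusted p = 0.431 and 0.19). Shared calls in either direction numbered 0 of 13 for heat shock genes, 0 of 20 for endoplasmic reticulum stress and folding genes, 0 of 11 for interferon-induced genes and 0 of 15 for cholesterol synthesis genes, lists of a size at which 3.07% is less than 1 gene. For the endoplasmic reticulum list the median was -0.03 in FANS and -0.35 in INTACT, and for cholesterol synthesis it was -0.26 and -0.28.

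All 15 oligodendrocyte markers in the list were called higher in batch 2 in FANS and in INTACT, beside 4.24% and 5.13% of all tested genes. Their median log2 fold change was -1.78 in FANS and -2.02 in INTACT. The summed count of the 15 lay between 3319 and 5973 in FANS batch 2 and between 1251 and 1575 in FANS batch 3. In INTACT it lay between 5663 and 6637 and between 1443 and 1774. No library of batch 3 reached the lowest library of batch 2, in FANS or in INTACT. The sfGFP+ gate and the bead capture select tagged nuclei and would remove untagged ones, and the part of untagged nuclei or of free RNA in these counts was not tested.

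Cldn11, the tight junction protein of myelin, had FANS counts of 224, 275 and 448 (lowest, median, highest) in batch 2 and 45.7, 49.6 and 83.4 in batch 3. In INTACT it had 517, 453, 426 and 401 in batch 2 and 83.4, 83.5, 52.9, 53.2 and 58.2 in batch 3. The batches did not overlap, and the log2 fold change was -2.37 ± 0.13 in FANS and -2.77 ± 0.12 in INTACT (adjusted p = 2.3e-13 and 9.88e-20). Mal, a proteolipid of myelin membranes, had FANS medians of 362 and 85.4 and INTACT counts of 674, 759, 578 and 590 against 117, 92.8, 100.3, 82.1 and 86.8. Its log2 fold change was -2.15 ± 0.14 in FANS and -2.75 ± 0.10 in INTACT (adjusted p = 5.95e-12 and 1.18e-22), and the difference between techniques had an adjusted p of 0.282. Mobp, a basic protein of compact myelin, had FANS medians of 335 and 69.7 and INTACT counts of 422, 409, 374 and 357 against 99.6, 114, 91.2, 89.0 and 85.6. Mobp likewise showed no overlap, with log2 fold changes of -2.13 ± 0.14 and -2.02 ± 0.10.

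Mog, a glycoprotein of the outer myelin surface, had FANS medians of 198 and 47.9 and log2 fold changes of -2.02 ± 0.17 and -2.27 ± 0.11 (adjusted p = 5.96e-10 and 4.67e-18). Opalin, a membrane protein of central myelin, had FANS medians of 62.1 and 16.1 and log2 fold changes of -2.03 ± 0.21 and -2.35 ± 0.18. Mbp, the main basic protein of myelin, had the highest of these counts, with FANS medians of 1473 and 574, and a log2 fold change of -1.28 ± 0.09 in FANS and -1.58 ± 0.06 in INTACT. It was named after its values were seen. Apod, a lipocalin that oligodendrocytes express strongly and that is not in the list, changed by -1.99 ± 0.19 and -2.51 ± 0.13. Of 7 markers of oligodendrocyte precursors, 3 were called higher in batch 2 in both, beside 3.07% of all tested genes, the lineage transcription factors Olig1, Olig2 and Sox10, which mature oligodendrocytes also express. Olig2 changed by -1.56 ± 0.23 and -1.93 ± 0.29, Sox10 by -1.49 ± 0.22 and -1.78 ± 0.17, and Olig1 by -1.33 ± 0.22 and -1.79 ± 0.20. Pdgfra, the receptor that defines precursors, was at 0.21 ± 0.34 and 0.03 ± 0.44 (adjusted p = 0.694 and 0.963) at counts of 1.93 to 9.20 in FANS batch 2. It was named after its values were seen.

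Neat1, the long non-coding RNA that scaffolds nuclear paraspeckles, was higher in batch 2 as well. It had FANS counts of 777, 1347 and 1648 in batch 2 and 293, 332 and 415 in batch 3, and INTACT counts of 1666, 1575, 1406 and 1576 against 559, 459, 519, 483 and 417. There was no overlap, and the log2 fold change was -1.75 ± 0.12 and -1.68 ± 0.07 (adjusted p = 2.89e-11 and 7.71e-21). Malat1, its neighbour on chromosome 19 and the most abundant transcript of the libraries, was at -0.09 ± 0.12 and 0.17 ± 0.07 and did not pass the test (adjusted p = 0.639 and 0.0748). Of 14 nuclear long non-coding RNAs, 2 were called higher in batch 2 in both, Neat1 and Dlx6os1, beside 3.07% of all tested genes.

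Of 18 inhibitory neuron markers, 13 were tested and 7 were called higher in batch 2 in both techniques, with 0 higher in batch 3, beside 3.07% and 0.757% of all tested genes. The 7 were Gad1, Gad2, Slc32a1, Sst, Dlx1, Ndnf and Erbb4. Of these the calls of Dlx1 and Ndnf are a description, since both were admitted by their batch 2 counts, as given below. The list median was -0.63 in FANS and -1.11 in INTACT. The summed count of the 18 lay between 993.8 and 1136 in FANS batch 2 and between 576 and 763 in FANS batch 3, and in INTACT between 1127 and 1262 and between 556 and 687. The batches did not overlap in either technique. Erbb4, a neuregulin receptor of interneurons, had FANS counts of 68.6, 77.9 and 118 in batch 2 and 4.13, 34.3 and 42.2 in batch 3, and INTACT counts of 139, 102, 108 and 83.3 against 38.2, 33.6, 40.6, 26.6 and 22.8. Its log2 fold change was -1.74 ± 0.30 and -1.72 ± 0.18 (adjusted p = 7.41e-05 and 1.58e-09). Ndnf, a secreted factor of layer 1 interneurons, and Dlx1, a homeobox factor of the lineage, passed the filter on low values only through batch 2, with FANS medians of 9.67 and 3.03 for Ndnf and of 14.2 and 3.54 for Dlx1.

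The enzymes of GABA synthesis, chosen after their values were seen, changed less. Gad1 had FANS counts of 108, 144 and 177 in batch 2 and 69.8, 93.0 and 138 in batch 3, and INTACT counts of 147, 146, 145 and 144 against 74.1, 65.0, 62.0, 74.0 and 60.5. The FANS ranges overlapped and the INTACT ranges did not, and the log2 fold change was -0.60 ± 0.13 and -1.11 ± 0.12 (adjusted p = 0.00126 and 3.96e-09). Sst changed by -1.67 ± 0.20 and -1.90 ± 0.27, Slc32a1, the vesicular GABA transporter, by -0.79 ± 0.18 and -1.11 ± 0.26, and Gad2 by -0.60 ± 0.15 and -0.92 ± 0.16. Pvalb and Vip, which mark other interneuron classes, had log2 fold changes of 0.14 ± 0.30 and -0.30 ± 0.39 in FANS (adjusted p = 0.782 and 0.616) and of 0.44 ± 0.33 and -0.90 ± 0.51 in INTACT (adjusted p = 0.352 and 0.201) and did not pass the test in either. Dlx6os1, a long non-coding RNA of the Dlx5 and Dlx6 locus, changed by -1.79 ± 0.18 and -1.74 ± 0.21.

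Markers of excitatory neurons showed no shared call among 12 tested, and their median was 0.10 in FANS and 0.01 in INTACT. Camk2a, the kinase of excitatory synapses, was at 0.08 ± 0.04 and 0.15 ± 0.05. The summed count of 10 upper layer markers was higher in batch 3, at 5551 to 5945 against 5012 to 5367 in FANS and at 5811 to 6518 against 5137 to 5317 in INTACT, with no overlap. Of these markers 1 was called in each direction, beside 3.07% and 0.757% of all tested genes, Otof, a calcium sensor of vesicle release, higher in batch 2 (-0.84 ± 0.10 and -0.69 ± 0.09) and Rorb, a nuclear receptor of layer 4, higher in batch 3 (0.69 ± 0.06 and 0.76 ± 0.06). Rorb had FANS counts of 551, 626 and 666 in batch 2 and 857, 982 and 1104 in batch 3, with no overlap. Of 13 deep layer markers, 1 was called in each direction, beside the same shares of all tested genes. Ctgf, a matricellular gene of layer 6b, was higher in batch 2 (-1.18 ± 0.20 and -1.64 ± 0.20) and Foxp2, a forkhead factor of layer 6, higher in batch 3 (0.68 ± 0.07 and 0.68 ± 0.08).

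Astrocyte markers had 0 shared calls among 15 tested. Their median was 0.26 in FANS and -0.04 in INTACT, and the latter became 0.01 with upper quartile scaling. Slc1a2, the main glutamate transporter of astrocytes, was at 0.43 ± 0.06 and 0.24 ± 0.05, under 1.5-fold. Clu, a secreted chaperone of astrocytes, was at -0.31 ± 0.10 in FANS and at -0.59 ± 0.09 in INTACT (adjusted p = 0.0316 and 4.84e-06), the opposite direction. In FANS 2 of the 15 were called higher in batch 3 and 0 higher in batch 2, and in INTACT 0 and 2, beside 1.67% and 4.24% of all tested genes in FANS and 2.34% and 5.13% in INTACT. Markers of other cells were near the limit of the counts. Of 15 microglia markers 6 were tested, with 0 shared calls and medians of -0.78 in FANS and -0.11 in INTACT, and Tmem119 and C1qa, which define microglia, had mean counts of 1.38 and 0.923. Of 17 vascular and meningeal markers 5 were tested, with 0 shared calls, medians of -0.56 and -0.18 and summed counts of all 17 of 134 to 146 in FANS batch 2 and 79.1 to 122 in FANS batch 3, and of 130.0 to 153 and 79.9 to 123 in INTACT, and Cldn5 of endothelium had a mean count of 0.165. Of 10 autosomal markers of choroid plexus, ependyma and blood 2 were tested, Ttr and Kl. Kl was at -0.58 ± 0.37 and -0.37 ± 0.44 and did not pass the test (adjusted p = 0.277 and 0.579). Ttr passed the filter on low values only through INTACT batch 2, so the list medians of -0.75 and -1.88 are a description. The 4 globin genes in the list were at 0 in every library. So were Rpl26 and Ndufs5 of the ribosomal and oxidative phosphorylation lists, so a 0 here need not mean no expression. Shared calls numbered 0 of 10 among striatum markers and 1 of 4 among hippocampus markers, beside 3.07% of all tested genes higher in batch 2 and 0.757% higher in batch 3. The hippocampus medians were -0.88 and -0.51 over 4 tested genes. The 1 was Prox1, a homeobox factor that interneurons also express (-1.36 ± 0.21 and -1.47 ± 0.18).

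**Figure D4:**
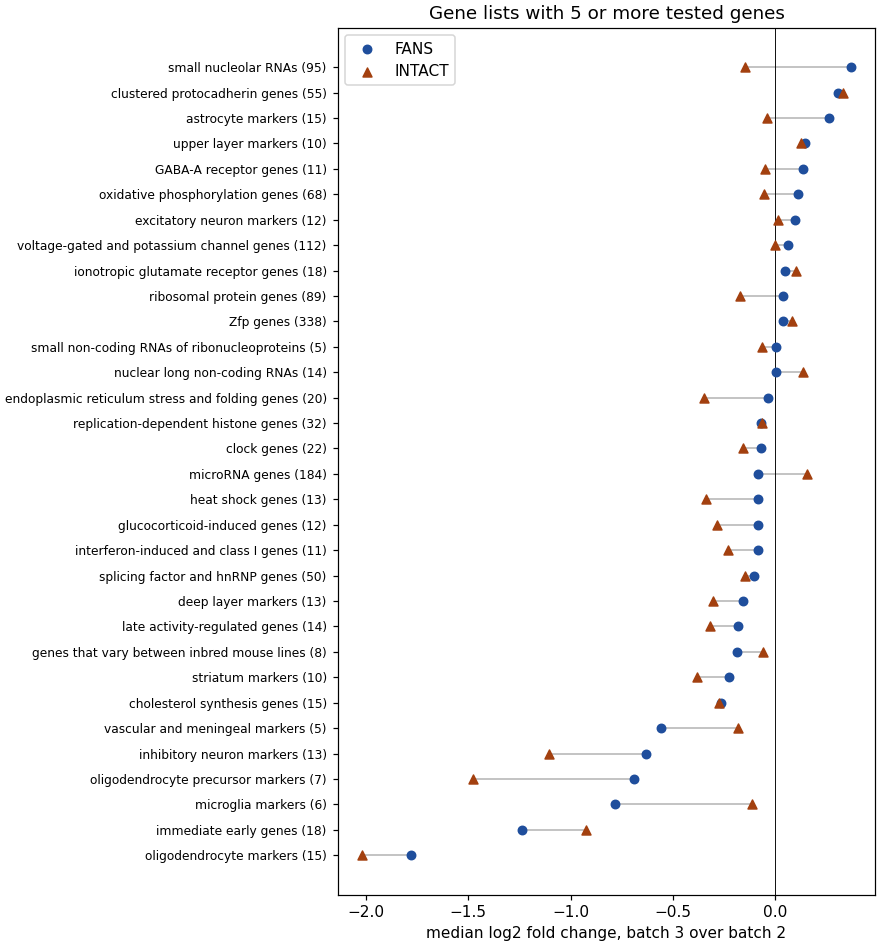
Median log2 fold change, batch 3 minus batch 2, in FANS and INTACT, of each gene list with at least 5 tested genes, with the number tested beside its name. Oligodendrocyte markers (-1.78 and -2.02), immediate early genes (-1.24 and -0.93), oligodendrocyte precursor markers (-0.69 and -1.48) and inhibitory neuron markers (-0.63 and -1.11) lie below 0. So do microglia (-0.78 and -0.11) and vascular markers (-0.56 and -0.18) with few tested members, whereas excitatory neuron markers are near 0 (0.10 and 0.01).

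Of the 10 named genes with the largest shared change toward batch 2, Fos, Nr4a3, Cldn11, Mal, Mobp, Mog and Apod are described above. The other 3 were Ndst4, Unc5b and Tmem181b-ps. Ndst4, an enzyme that modifies heparan sulfate chains, had FANS counts of 63.6, 84.4 and 102 in batch 2 and 7.29, 11.8 and 53.7 in batch 3, and INTACT counts of 108, 108, 80.4 and 84.3 against 25.5, 8.12, 16.9, 13.9 and 14.8. The batches did not overlap, though 1 FANS library of batch 3 reached 53.7 while the next had 27.2. Unc5b, a netrin receptor, had FANS medians of 76.8 and 17.7 and log2 fold changes of -1.99 ± 0.16 and -2.25 ± 0.19. Cyr61, a matricellular protein and early response gene, was at -3.74 ± 0.32 and -4.20 ± 0.35, with FANS medians of 59.8 and 4.13. It passed the filter on low values only through batch 2, so its values are given as a description. Sik1, a kinase that CREB induces, changed by -2.69 ± 0.16 and -2.54 ± 0.27, with FANS medians of 74.4 and 9.81. Tnfaip6, a hyaluronan-binding protein, changed by -2.24 ± 0.23 and -2.76 ± 0.28. Cyr61, Sik1 and Tnfaip6 had means under 50, and they were picked with their values known.

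Genes higher in batch 3 changed by less. Ica1, an islet autoantigen that takes part in vesicle traffic, led them, with FANS counts of 309, 338 and 396 in batch 2 and 773, 808 and 941 in batch 3. In INTACT it had 296, 270, 326 and 340 in batch 2 and 769, 803, 863, 785 and 762 in batch 3. All libraries of batch 3 were above all of batch 2, with log2 fold changes of 1.29 ± 0.06 and 1.37 ± 0.07 (adjusted p = 2.62e-15 and 4.27e-18). Dlc1, a GTPase-activating protein, had FANS medians of 263 and 579 and changed by 1.13 ± 0.06 and 1.06 ± 0.07. Pde10a, a cyclic nucleotide phosphodiesterase that is abundant in striatum, had FANS counts of 1031, 1199 and 1253 in batch 2 and 2049, 2154 and 2528 in batch 3, with log2 fold changes of 0.90 ± 0.05 and 1.01 ± 0.05. Ddit4l, a relative of the mTOR inhibitor Ddit4, had FANS medians of 95.2 and 214 and changed by 1.10 ± 0.09 and 0.99 ± 0.10, the opposite direction to Ddit4 (-0.74 ± 0.21 and -0.72 ± 0.26).

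Pisd-ps1 and Pisd-ps2 are pseudogenes of a mitochondrial phospholipid enzyme, and reads may be shared with near-identical copies, so their values are uncertain. Pisd-ps1 had FANS medians of 936 and 2150 and Pisd-ps2 of 161 and 341, with log2 fold changes of 1.22 ± 0.06 and 1.38 ± 0.06 for Pisd-ps1 and of 1.14 ± 0.08 and 1.30 ± 0.07 for Pisd-ps2. Ankrd34c changed by 0.95 ± 0.10 and 1.05 ± 0.16. Fgf1, a fibroblast growth factor, changed by 1.00 ± 0.15 and 0.78 ± 0.16, with FANS counts of 28.9 to 44.5 in batch 2 and 52.5 to 117 in batch 3. Fem1c, a substrate receptor of a ubiquitin ligase, changed by 0.75 ± 0.08 and 0.75 ± 0.10. Mios, a subunit of the GATOR2 complex that signals amino acids to mTORC1, changed by 0.82 ± 0.06 and 0.82 ± 0.07.

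Mios and Ica1 are near each other, and the genes between them were looked at after their values were seen. Within chr6:8209111-8778540 of GRCm38, a span of 569 kb, Mios, Rpa3, Glcci1 and Ica1 were called higher in batch 3 in both techniques. Rpa3, a subunit of the single-stranded DNA binding protein RPA, changed by 0.68 ± 0.13 and 0.75 ± 0.16. Glcci1, a glucocorticoid-induced gene, changed by 0.71 ± 0.06 and 0.66 ± 0.06 (adjusted p = 2e-10 and 8.53e-11). Umad1 and A430035B10Rik, which lie between them, were at 0.26 ± 0.08 and 0.28 ± 0.15 in FANS and were not called there. In INTACT Umad1 was at 0.21 ± 0.10 and was not called, and A430035B10Rik was called higher in batch 3 (0.62 ± 0.21, adjusted p = 0.0235). On the outer side of Mios, Col28a1 was higher in batch 2 (-1.31 ± 0.19 and -1.03 ± 0.21). It was the only stretch of the genome in which at least 4 of 10 adjacent tested genes were called higher in batch 3 in both techniques, while 7 stretches were found for batch 2.

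A stretch of 364 kb at chr17:6256726-6620925 held 4 genes higher in batch 2, Tmem181a, Dynlt1b, Tmem181b-ps and Tmem181c-ps, and was looked at after its values were seen. Past its end Tagap1, a GTPase-activating protein gene, was called higher in batch 3 in both techniques (0.66 ± 0.10 and 0.78 ± 0.15). Tmem181b-ps, a transcribed pseudogene, had FANS counts of 7608, 7952 and 8148 in batch 2 and 1865, 1964 and 2045 in batch 3, and INTACT counts of 7728, 7309, 8129 and 8334 against 1974, 1874, 2016, 1891 and 2145. Its log2 fold change was -2.02 ± 0.04 and -1.99 ± 0.05 (adjusted p = 3.46e-24 and 2.44e-27), and libraries of one batch lay close together. Tmem181a changed by -1.67 ± 0.06 and -1.73 ± 0.06, Dynlt1b, a light chain of dynein, by -2.44 ± 0.25 and -2.21 ± 0.30, and Tmem181c-ps by -1.28 ± 0.20 and -1.32 ± 0.28. Dynlt1a, a near-identical copy between them, was at -0.15 ± 0.17 and 0.25 ± 0.20 and was not called. The Tmem181 genes are near-identical to one another, as are the Dynlt1 genes, and the counting could split their reads, so single values are uncertain. Of 8 genes listed as varying between inbred mouse lines, 1 was called higher in batch 2 in both, Glo1, a glyoxalase (-0.84 ± 0.16 and -0.77 ± 0.19), beside 3.07% of all tested genes. The genotype of single animals was not analysed here, and its part in these differences was not tested.

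**Figure D5:**
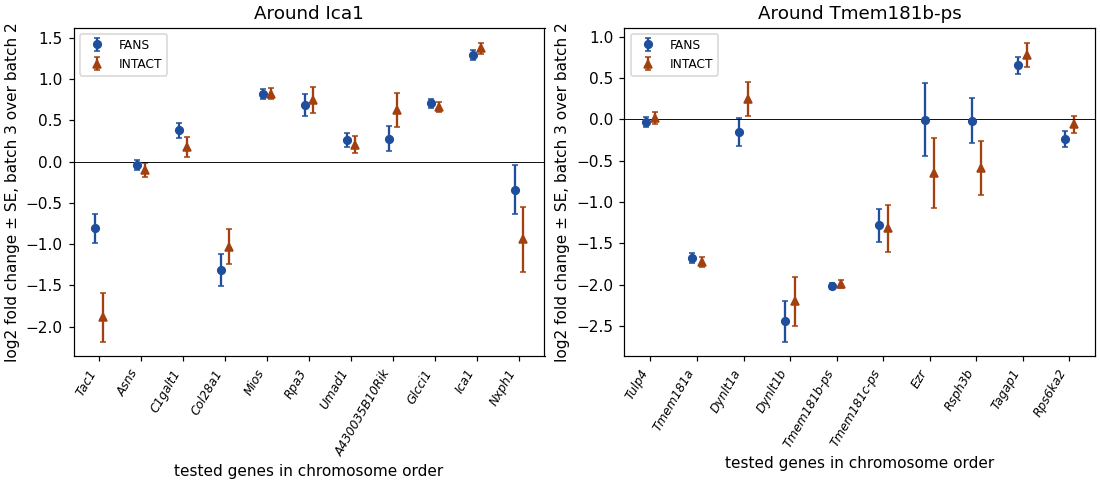
Log2 fold change, batch 3 minus batch 2, with standard errors, of adjacent tested genes in the Ica1 and Tmem181 stretches, by order along the chromosome. In the first, Mios, Rpa3, Glcci1 and Ica1 lie above 0, and in the second, Tmem181a, Dynlt1b, Tmem181b-ps and Tmem181c-ps lie below 0 with Dynlt1a near it and Tagap1 above it.

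Whether the batches differed to another extent in FANS than in INTACT was tested with an interaction term in limma. It called 0 genes, with 1536 genes (10.9%) at an unadjusted p under 0.05 and a smallest adjusted p of 0.197. The quasi-likelihood test of edgeR also called 0, with 1563 genes at an unadjusted p under 0.05. Without FANS batch 3 replicates 6 and 7, the libraries with the most reads outside genes, 197 genes were called, 109 of them with a larger value in INTACT and 88 with a smaller one. The 197 were 1.39% of the genes tested then, and 4 of them were among the genes called in both techniques. Of the lists, immediate early genes held 1 (Jun) and oligodendrocyte and inhibitory neuron markers 0, at sizes where that share is less than 1 gene. Heat shock, endoplasmic reticulum, cholesterol synthesis and oxidative phosphorylation genes held 2 each. Ribosomal protein and clustered protocadherin genes held 3 each.

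Small nucleolar RNAs guide chemical modification of ribosomal and spliceosomal RNA, and their medians lay on opposite sides of 0 in the 2 techniques. In FANS 24 of 95 were called higher in batch 3 and 0 lower, beside 1.67% and 4.24% of all tested genes. In INTACT 1 was called higher and 3 lower, beside 2.34% and 5.13%, and 1 was called in both, Scarna10 (1.05 ± 0.14 and 0.62 ± 0.19). The list median was 0.37 in FANS and -0.15 in INTACT. Summed over all 115 autosomal genes of the list, the count lay between 23912 and 29016 in FANS batch 2. In FANS batch 3 it was 18602 in replicate 7, below every library of batch 2, and 30408 to 36929 in the other 6, above every one. Without replicates 6 and 7 of FANS batch 3, 32 of 95 were called higher in batch 3 in FANS (beside 1.56% of all tested genes), and without 1 library of that group 19 to 29. Of the 95, 40 had an interaction p under 0.05, beside 10.9% of all tested genes, and 0 an adjusted one. Without FANS batch 3 replicates 6 and 7, 11 were among the 197 genes called, beside 1.39% of all tested genes. Ttr, the thyroxine carrier of choroid plexus, passed the filter on low values only through INTACT batch 2 and is given as a description. It had FANS counts of 1.65 to 7.79 in batch 2 and 0 to 3.27 in batch 3, and INTACT counts of 31.8, 26.8, 19.6 and 28.1 against 4.63, 1.16, 1.13, 0 and 3.43.

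Groups that did not overlap between batches, in either direction, were seen for 1077 tested genes in FANS (7.62%) and 3019 in INTACT (21.4%). Among the genes called in both techniques with a mean of at least 50, 163 higher in batch 2 and 40 higher in batch 3 had no overlap in either technique. Of the 434 genes higher in batch 2 in both, 414 were protein-coding and 15 long non-coding, and of the 107 higher in batch 3, 79 and 20. The shares of these types among all tested genes are not given here, so these counts are a description with nothing to set them against.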

How the data were processed

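RNA-seq values of 23 libraries of sfGFP+ nuclei were taken from the tables of batches 2 and 3. According to the methods and labels, the authors mapped single-end reads to mm10 with STAR, collapsed duplicates by their identifiers, counted unique alignments per gene with HTSeq and divided them by a DESeq size factor per library within each table. The deposited values are thus a signal, counts over size factors, with no gene length. The smallest step of each column was taken as 1 read, and at least 99.988% of the values in each library were then whole within 0.1 reads. The 23 columns were scaled together by TMM, and summed counts of lists were computed with this scaling alone. The tables list 24421 genes, of which 23200 were matched by symbol, 1095 by an older symbol and 126 not at all, and 5 summary rows that entered neither totals nor tests. Reads outside gene features made up 77.4 to 85.1% of all reads, and 4205665 to 7292908 reads on genes set the precision. The labels list 1 more FANS and 1 more INTACT library of batch 2, which were not analysed here.

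Batch 3 was compared with batch 2 by limma 3.58.1 (lmFit, eBayes with trend) in R 4.3.3 on log2(scaled count + 1), in FANS and INTACT alone, over 14703 genes with a mean of at least 5. Adjustment was by Benjamini-Hochberg over all of them, and 530 genes on X or Y and 40 with no chromosome were left out of counts. Fold changes are on the log2(count + 1) scale, which understates those of low genes. Library measures were compared by exact permutation tests, two-sided. edgeR 4.0.16 and DESeq2 1.42.0 on the recovered reads were alternatives, beside other scalings, pseudocounts, filters, a 2-fold threshold, the share of reads outside features as a covariate (FANS), the replicate number as a block and each library left out. Leaving out FANS batch 3 replicates 6 and 7 together was chosen after seeing the data. The scripts were tested on simulated data.

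Members, lists and tests were chosen with earlier results of these data known. Genes were named by rule: in each direction the 10 with the largest smaller change of both techniques, with a mean of at least 50, no overlap and no clone or predicted name, the 3 largest of any symbol, Arc, Sun1 and Gt(ROSA)26Sor, and up to 4 called members (or the 2 highest) of each list. Promoters are the 250 bases before the start site in RefSeq GRCm38.p6, and 10972 of 14133 tested genes matched one.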

Additional observations from a re-analysis of the deposited data

Results flagged for a closer look

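Of 112 groups examined (23 named genes and 5 library measures in 4 groups), 8 held a library whose gap to the nearest other library was larger than Dixon's 95% limit, and chance flags about 1 in 20 groups. Fos was highest in INTACT batch 2 replicate 3, at 107.5 against 88.3 in the nearest library, and Arc lowest in FANS batch 2 replicate 6, at 1072 against 1184. Mal was highest in FANS batch 2 replicate 5, at 611 against 389, and Pde10a lowest in FANS batch 2 replicate 4, at 1031 against 1173. FANS batch 3 replicate 6 was flagged for 2 genes, highest for Ndst4, at 53.7 against 27.2, and lowest for Ddit4l, at 179 against 209.9. Sun1 was highest in INTACT batch 3 replicate 2, at 1526 against 1460.3, and Gt(ROSA)26Sor lowest in INTACT batch 3 replicate 3, at 25.9 against 46.3. For Fos, Arc, Mal, Pde10a, Ndst4 and Ddit4l the flagged library still lay on its own side of the other batch.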

How the results depend on the processing

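Counts are given as higher in batch 3 and higher in batch 2. With a mean of at least 50, the calls were 102 and 217 in FANS, 149 and 351 in INTACT and 54 and 194 in both. With a 2-fold threshold they were 39 and 297, 73 and 357, and 19 and 235. Under the other settings each count stayed within 1.5 times of that reported, and leaving out 1 library at a time gave 209 to 247 and 544 to 611 in FANS, 283 to 343 and 643 to 727 in INTACT, and 92 to 114 and 401 to 444 in both. The interaction called 1 gene (Ttr) with a pseudocount of 5, 0 to 1 without 1 library (1 without FANS batch 3 replicate 7) and 197 without FANS batch 3 replicates 6 and 7.

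The oligodendrocyte list kept 15 shared calls without any 1 library, the immediate early list 11 to 12 and the inhibitory list 5 to 8. Without FANS batch 3 replicates 6 and 7 together they had 15, 11 and 5. With a mean of at least 50 they had 13, 8 and 3, and with a 2-fold threshold 14, 8 and 4. Batch held 43.5% of the variance over the 500 most variable genes. In FANS the difference in reads outside features was 1.34 to 2.19 percentage points without 1 library, with an adjusted p of 0.0524 to 0.0583 without FANS batch 2 replicate 2, 4, 5, 7 or 8. The share of the 10 highest genes differed by -0.734 to 0.0118 points in FANS, turning to 0.0118 without FANS batch 2 replicate 2, and by 0.579 to 1.16 in INTACT, with an adjusted p of 0.0286 without INTACT batch 3 replicate 2. Of 2822 values of 40 named genes, 19 lost the call, 18 of them at 2-fold and Tmem181c-ps in INTACT without a filter on low values (adjusted p = 0.0547). None changed direction. Of 148 list medians under other scalings, 4 changed sign, those of astrocyte markers, GABA-A receptors and channels in INTACT.

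With the replicate number as a block the calls were 219 and 556 in FANS, 327 and 750 in INTACT and 93 and 410 in both. The numbers mark no pairing, since same-numbered libraries of the batches correlated at -0.149 to 0.0711 in FANS and 0.00219 to 0.0633 in INTACT, and 0 of 6 and 1 of 4 libraries of batch 2 correlated best with their own number.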

Other observations

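Shares called in both techniques over all tested genes were 3.07% higher in batch 2 and 0.757% higher in batch 3. Of 338 Zfp genes, which encode zinc finger proteins, 4 were called higher in batch 2 in both techniques (Zfp189, Zfp488, Zfp536 and Zfp868) and 3 higher in batch 3 (Zfp518a, Zfp648 and Zfp947). Zfp488 and Zfp536, which are known from the oligodendrocyte lineage, changed by -1.66 ± 0.30 and -1.63 ± 0.17 in FANS and by -2.04 ± 0.41 and -1.57 ± 0.15 in INTACT. Zfp488 had a mean count of 9.15 and passed the filter on low values only through batch 2, so its values and call are a description. Of 112 voltage-gated and potassium channel genes, 9 were called higher in batch 2 in both and 1 higher in batch 3, beside the 3.07% and 0.757% of all tested genes, and the list medians were 0.06 and -0.0013, the latter turning to 0.01 or 0.05 with DESeq2 size factors or upper quartile scaling. Scn9a, a sodium channel alpha subunit, was the one higher in batch 3 (0.61 ± 0.09 and 0.59 ± 0.08). Cacng5, an auxiliary subunit of AMPA receptors, had FANS medians of 52.0 and 16 and changed by -1.78 ± 0.18 and -2.20 ± 0.26. All were named after their values were seen.

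Clustered protocadherin genes, which give neurons their surface identity, had positive medians, 0.31 in FANS and 0.33 in INTACT, with 1 of 55 called in both (Pcdhb4, 0.85 ± 0.16 and 0.59 ± 0.16). In FANS 0 of 55 and in INTACT 2 of 55 were lower in batch 3. Summed over all 59 genes, the count lay between 6010 and 7077 in FANS batch 2 and between 7285 and 9687 in FANS batch 3, and in INTACT between 5934 and 6837 and between 7865 and 8230, with no overlap. Sums of 19 autosomal ionotropic glutamate receptor genes were also higher in batch 3 with no overlap, at 35455 to 37678 against 33615 to 34776 in FANS and 35935 to 37201 against 33861 to 35144 in INTACT. Shared calls numbered 0 of 89 among ribosomal protein genes, 0 of 68 among oxidative phosphorylation genes, 0 of 50 among splicing factor genes, 0 of 32 among replication-dependent histone genes, 0 of 18 among ionotropic glutamate receptor genes and 0 of 11 among GABA-A receptor genes.

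Among stretches of adjacent genes higher in batch 2, one on chromosome 11 held Arsg, Abca8a, Abca9 and Abca6, the last 3 of them lipid transporter genes, with log2 fold changes of -0.73 ± 0.13, -1.76 ± 0.14, -0.68 ± 0.18 and -0.61 ± 0.12 in FANS and of -1.03 ± 0.17, -1.63 ± 0.14, -0.73 ± 0.24 and -0.61 ± 0.16 in INTACT. Another on chromosome 19 held Scd1 and Scd3, desaturases of fatty acids, with Pkd2l1 and Sema4g. Scd1 changed by -0.73 ± 0.15 and -1.02 ± 0.14.

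Genes called in both techniques also differed from all tested genes in base composition. The median GC content of the transcript was 49.6% for all tested genes, 51.5% for those higher in batch 2 and 44.5% for those higher in batch 3, and the median transcript length was 3366, 3601 and 3311 bases. Median mean counts were 116, 42.1 and 54.5. The part of base composition in the batch differences was not tested.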
